A study of Rattus norvegicus with 7 samples.

Results

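miR-31a is a microRNA (miRNA) made from 1 hairpin, whose arms give miR-31a-5p and miR-31a-3p (named rno-miR-31a-5p and rno-miR-31a-3p in the files). Both arms were measured here, as 2 of the 719 miRNAs on an Agilent rat miRNA array, by taking every non-control spot that the array files name for either arm. Total RNA came from primary skeletal muscle cells of the rat (RSkMC), isolated from limb muscle of newborn rats and bought frozen at the second passage, on day 11 after differentiation was induced in medium with horse serum. The control group held 3 untreated samples, and the other group held 4 samples given 1 ng/ml of recombinant interleukin-6 (IL-6), a cytokine made by working muscle among other sources. Titles and the design text give these groups, while the growth text names IL-6 for every sample. Each sample had its own 1-colour array. The labels name no genotype, and do not say whether replicates were separate cultures, and the p-values below therefore cover the spread among these 7 samples, which may be technical.

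A miRNA guides Argonaute proteins to messenger RNAs (mRNAs) that carry a match to its seed, bases 2 to 8 from the 5′ end, and lowers their translation or stability. In quiescent satellite cells, the stem cells of skeletal muscle, miR-31 is known for holding the mRNA of Myf5, a transcription factor that commits cells to the muscle lineage, in cytoplasmic granules. When the cells are activated the granules come apart and Myf5 protein is made. miR-31 is also known to repress dystrophin, a protein of mature fibres. Neither mRNA was measured by these arrays.

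The mature sequences are shown because their seeds and the bases that the probes read set what was measured. They are printed 5′ to 3′ from RefSeq (GRCr8), with the seed in capitals. The third, miR-31b, is shown because its sequence is complementary to miR-31a-5p and close to miR-31a-3p.
miR-31a-5p: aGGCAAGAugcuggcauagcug
miR-31a-3p: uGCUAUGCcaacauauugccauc
miR-31b: cUAUGCCAgcaucuugccu

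The seeds of the arms differ, so each arm has its own set of possible targets. The letters that a target would need to match the seed are UCUUGCC for miR-31a-5p and GCAUAGC for miR-31a-3p. In a table of 693 mature rat miRNAs, which matched 651 of the 719 names on the array, no other miRNA had the seed of miR-31a-5p, of miR-31a-3p or of miR-31b. miR-31b is the exact reverse complement of bases 1 to 19 of miR-31a-5p. It also has 16 of its 19 bases in common with bases 3 to 21 of miR-31a-3p.

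The hairpin, Mir31, is 106 bases long and is shown with both arms in capitals because the arm ratio below compares these stretches.
Mir31 hairpin: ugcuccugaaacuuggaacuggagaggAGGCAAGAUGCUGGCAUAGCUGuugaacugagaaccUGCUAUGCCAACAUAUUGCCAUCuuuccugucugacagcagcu

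In its predicted fold (RNAfold, -45.9 kcal/mol), 17 of the 22 bases of miR-31a-5p pair with miR-31a-3p, among them 6 bases of the seed, and 14 bases lie between the arms. In the RefSeq annotation Mir31 lies on chromosome 5 and overlaps a long non-coding RNA gene, LOC130062807, and Mir3554, the gene of miR-31b. The next protein-coding gene on one side is Ifne, an interferon gene, and on the other C5h9orf85.

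Each arm was read by a nested pair of probes, shown 5′ to 3′ because each pair differs by 1 base and shares its target, so that its members are not replicates.
miR-31a-5p, 16 bases: cagctatgccagcatc
miR-31a-5p, 17 bases: cagctatgccagcatct
miR-31a-3p, 18 bases: gatggcaatatgttggca
miR-31a-3p, 19 bases: gatggcaatatgttggcat

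The probes of miR-31a-5p pair with bases 7 to 22 and 6 to 22 of the mature miRNA, and the files place them on rn4 at chr5:108497683-108497697 and chr5:108497682-108497697. Those of miR-31a-3p pair with bases 6 to 23 and 5 to 23, at chr5:108497718-108497734 and chr5:108497717-108497734. The listed ranges are 1 base shorter than the probes. The files list the probes of miR-31b at chr5:108497714-108497727 and chr5:108497715-108497727, which overlaps the ranges of miR-31a-3p, although its exact match by sequence is to the complement of miR-31a-5p. Only 2 to 4 bases of a seed are covered, so forms with another 5′ end are not told apart by these probes.

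Both arms were detected in every sample. All 140 spots of miR-31a-5p and all 140 of miR-31a-3p were well above background, at probe means of 422 to 1000 and 71.1 to 180 intensity units before scaling between arrays. The lowest signals well above background were between 12.9 and 18.2 units. None of the 140 spots of miR-31b was above background, and its highest probe mean was -1.48 units after background subtraction. The miR-31b probes pair with its bases 5 to 19 and 6 to 19, which hold every base where it differs from miR-31a-3p. Their lack of signal therefore does not show whether the shared bases alone can be read.

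After scaling, the level of miR-31a-5p was lower on each IL-6 array than on each control array. On its brighter, 17-base probe, and after division by the array's 75th percentile, the controls stood at 931, 966 and 891 scaled intensity units for replicates 1, 2 and 3. The IL-6 arrays stood at 831, 801, 845 and 878 for replicates 1 to 4. The groups therefore did not overlap, although the nearest arrays, control replicate 3 and IL-6 replicate 4, differed by 0.021 on the log2 scale. The mean was 929 ± 37.2 (SD, n = 3) in control and 839 ± 31.9 (SD, n = 4) with IL-6.

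**Figure D1:**
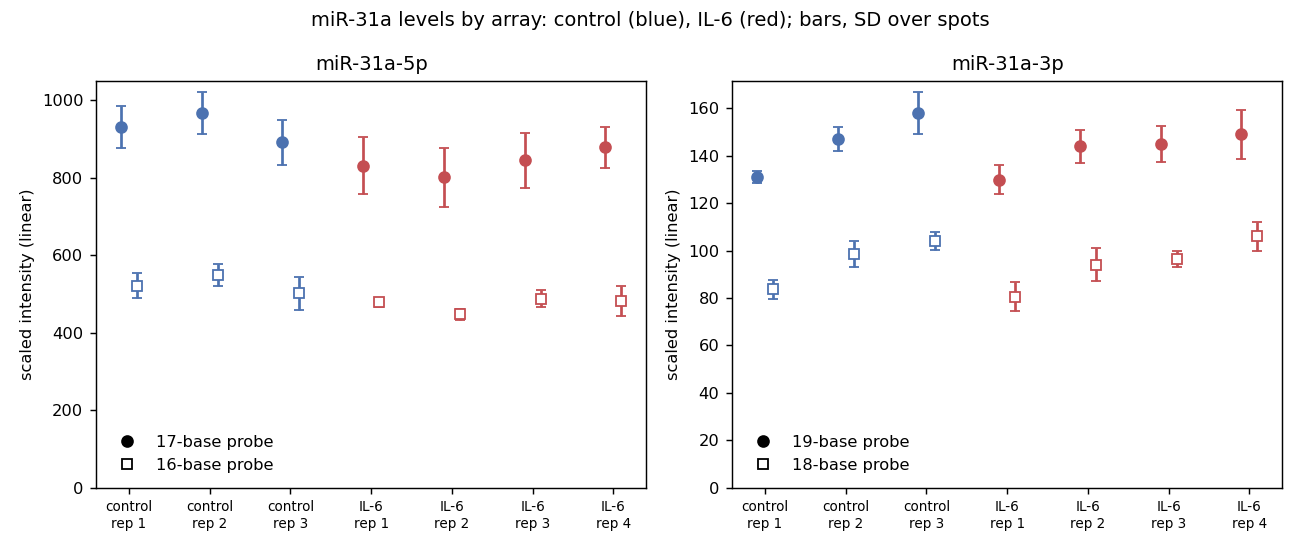
Scaled intensity (linear, from 0) of miR-31a-5p (left) and miR-31a-3p (right) on the 3 control (blue) and 4 IL-6 (red) arrays, with filled circles for the longer and open squares for the shorter probe of each arm. Bars are the SD over the spots of a probe. The 17-base probe of miR-31a-5p lies at 891 to 966 on control and 801 to 878 on IL-6 arrays, while the 19-base probe of miR-31a-3p lies at 131 to 158 and 130 to 149.

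The difference in miR-31a-5p was -9.74% (log2 fold change -0.15 ± 0.042 SE, 95% interval -0.25 to -0.05). It did not pass the threshold of 0.05 after adjustment over the 181 miRNAs tested (limma, Benjamini-Hochberg adjusted p = 0.0839). The exact two-sided permutation test over the 35 splits of the arrays gave p = 0.0571, where the smallest possible is 0.0286. In the same fit 9.39% of the tested miRNAs passed in either direction, 4.42% passed and were lower, 27.1% had an unadjusted p under 0.05, as miR-31a-5p did (0.0124), and 10.5% had every IL-6 array below every control array. Of these 19 lower miRNAs, 8 passed the test, and miR-31a-5p was not among them. It was the 25th of 181 in order of p, between miR-664-3p (log2 fold change -0.26 ± 0.074 SE) and miR-24-3p (-0.10 ± 0.029 SE), which have the same adjusted p. The absolute fold change of miR-31a-5p was larger than that of 70.7% of the tested miRNAs.

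**Figure D2:**
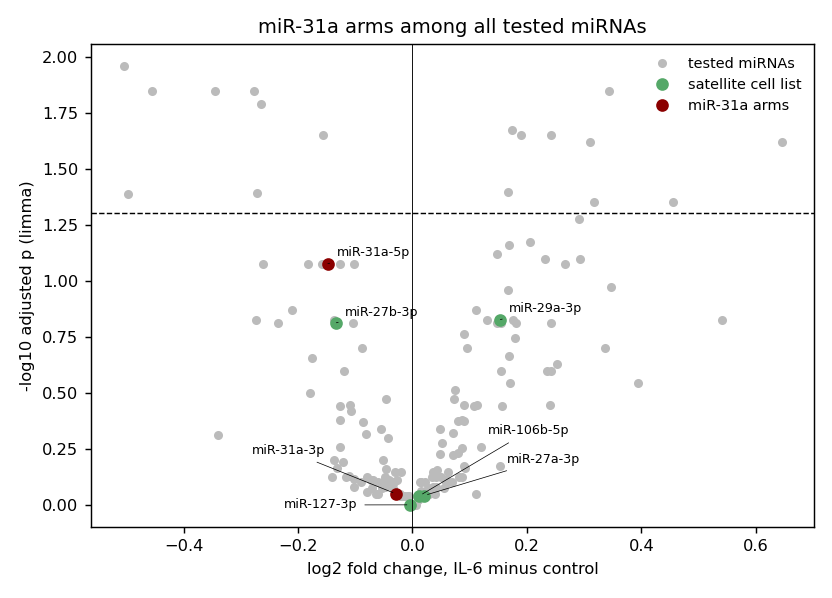
Log2 fold change (IL-6 minus control, x axis) against -log10 of the limma adjusted p (y axis) for the 181 tested miRNAs, with the miR-31a arms in dark red, the tested satellite cell list in green and the threshold of 0.05 dashed. miR-31a-5p lies at -0.15, below the dashed line, and miR-31a-3p at -0.028.

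The 16-base probe read 521, 549 and 502 scaled units on control replicates 1 to 3, and 478, 447, 488 and 481 on IL-6 replicates 1 to 4, again with no overlap. Its log2 fold change was -0.15 ± 0.044 SE (limma, Benjamini-Hochberg adjusted p = 0.0976). The ratio of the longer to the shorter probe stayed between 1.73 and 1.82 on all 7 arrays. The spots of 1 probe on 1 array varied by 2.26% to 9.51% (coefficient of variation). Probe means varied by 3.80% to 4.47% between the arrays of a group. A probe mean averages up to 10 spots, so these 2 spreads are not on the same footing.

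The direction for miR-31a-5p depended on the scaling. Before it, the 17-base probe read 794, 916 and 892 units on control replicates 1 to 3 and 733, 1000, 899 and 924 on IL-6 replicates 1 to 4, and the groups overlapped. IL-6 replicate 2 had the highest unscaled and the lowest scaled level, and it was the brightest array, with a 75th percentile 1.25 times the geometric mean over the arrays. Without scaling the log2 fold change was 0.030 ± 0.12 SE, and with spike-in scaling 0.038 ± 0.083 SE, where the median of all tested miRNAs was itself 0.17 and 0.18. Relative to that median, miR-31a-5p was lower in all 29 alternative settings that refit the model, by 0.12 to 0.23 on the log2 scale. A scaling factor moves miR-31a-5p and the median largely alike, and all settings use the same arrays. The 29 settings are therefore not independent checks of the direction. miR-31a-5p passed the test in 4 of the 29 settings: quantile normalization (-0.24 ± 0.043 SE, adjusted p = 0.0199), scaling by the median of probe ratios (-0.18 ± 0.042 SE, adjusted p = 0.0413), outlier spots kept (-0.18 ± 0.032 SE, adjusted p = 0.0233) and array weights (-0.17 ± 0.039 SE, adjusted p = 0.0271), all with limma. In these 4 settings, in this order, 7, 11, 6 and 29 of the 181 tested miRNAs passed as higher. As lower, 11, 14, 12 and 18 passed, against 9 higher and 8 lower in the reported setting. Among arrays of like brightness, control replicate 1 (75th percentile 0.852 times the geometric mean) stood at 931 and IL-6 replicate 1 (0.882 times) at 831. Control replicate 3 (1 times) stood at 891, and IL-6 replicates 4 and 3 (1.05 and 1.06 times) at 878 and 845. This leaves out control replicate 2 (0.949 times, at 966) and IL-6 replicate 2 (1.25 times, at 801). By the spike-ins the arrays differed less, from 0.927 on IL-6 replicate 1 to 1.02, the value of IL-6 replicate 2 among others.

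**Figure D3:**
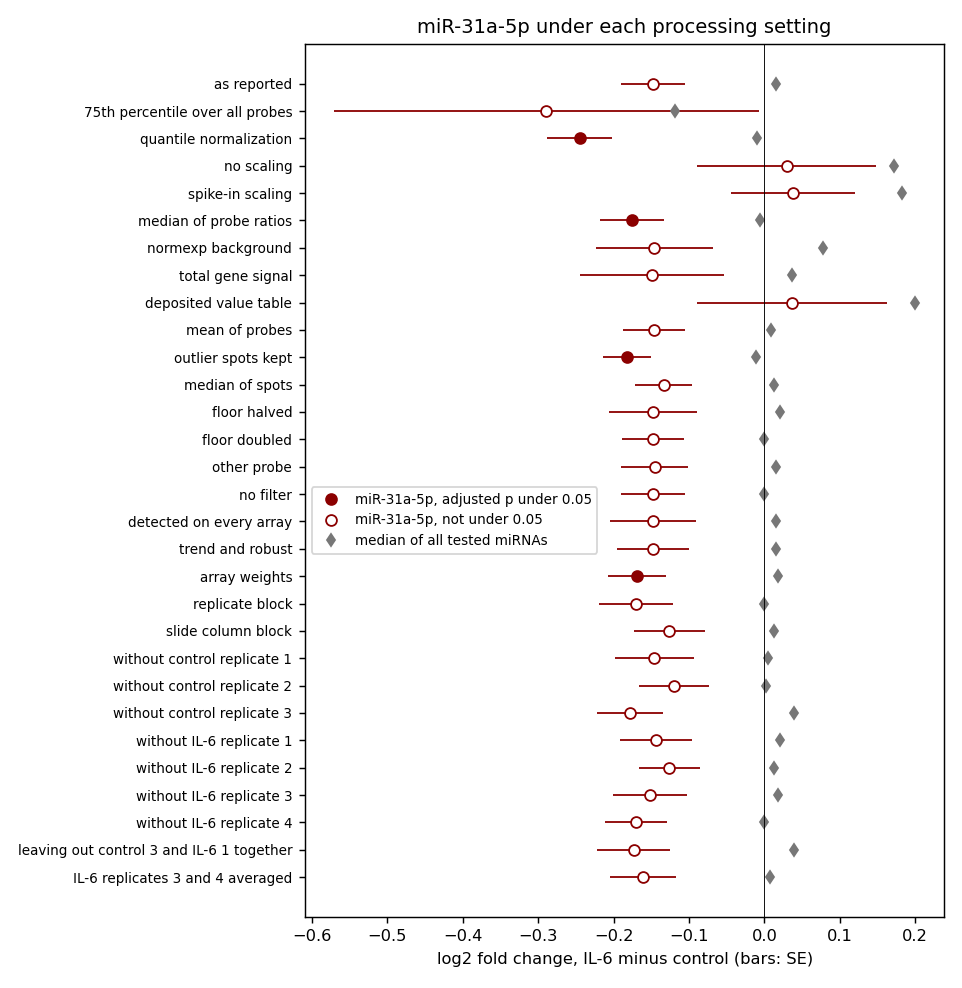
Log2 fold change of miR-31a-5p (dark red circles, bars SE) and the median over all tested miRNAs (grey diamonds) under the reported setting and 29 alternatives. Filled circles mark an adjusted p under 0.05. The circle lies left of the diamond in each setting, and it lies right of 0 with no scaling, spike-in scaling and the deposited value table.

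All 7 arrays lay on 1 slide, with control arrays in 1 row and IL-6 arrays in the other, so row and treatment cannot be told apart. Within a slide column, IL-6 minus control for miR-31a-5p was -0.17 in column 1, -0.19 in column 3 and -0.021 in column 4 (log2). The median over all tested miRNAs in these pairs was 0, 0 and 0.040. IL-6 replicate 2 had no control in its column. With slide column as a block, which leaves the comparison to the other arrays, miR-31a-5p was at -0.13 ± 0.047 SE (limma, adjusted p = 0.213), and 0 of 181 miRNAs passed (52 with an unadjusted p under 0.05).

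No difference was detectable in miR-31a-3p, the other strand of the hairpin, which is usually the less abundant. On its 19-base probe it stood at 131, 147 and 158 scaled units on control replicates 1, 2 and 3, and at 130, 144, 145 and 149 on IL-6 replicates 1 to 4. These ranges overlap almost fully, and the lowest array of each group was its replicate 1. The log2 fold change was -0.028 ± 0.078 SE, with a 95% interval of -0.22 to 0.16, or -14.1% to 11.9% (limma, Benjamini-Hochberg adjusted p = 0.894; exact permutation p = 0.771). A decrease of the size seen for miR-31a-5p lies inside this interval. The 18-base probe read 83.8, 98.4 and 104 on control and 80.6, 94.1, 96.5 and 106 on IL-6 arrays, again with replicate 1 lowest in both groups. Control replicate 1 and IL-6 replicate 1 share slide column 1 and are the arrays with the lowest 75th percentiles, 0.852 and 0.882 times the geometric mean. Whether either had a part in the level of miR-31a-3p was not tested.

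The ratio of the arms within an array does not depend on how arrays are scaled, except by quantile normalization. Its size reflects the probes as well as the molecules, so only its change between arrays is compared. Log2 of miR-31a-5p over miR-31a-3p was 2.83, 2.72 and 2.50 on control replicates 1 to 3, and 2.68, 2.48, 2.54 and 2.56 on IL-6 replicates 1 to 4. Control replicates 1 and 2 were the highest, and control replicate 3 lay within the IL-6 range. The means were 2.68 ± 0.17 (SD, n = 3) and 2.56 ± 0.083 (SD, n = 4). The difference of -0.12 did not pass the exact permutation test (two-sided p = 0.286). It was -0.044 without control replicate 1 and -0.21 without control replicate 3, and within slide columns 1, 3 and 4 it was -0.16, -0.18 and 0.058.

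**Figure D4:**
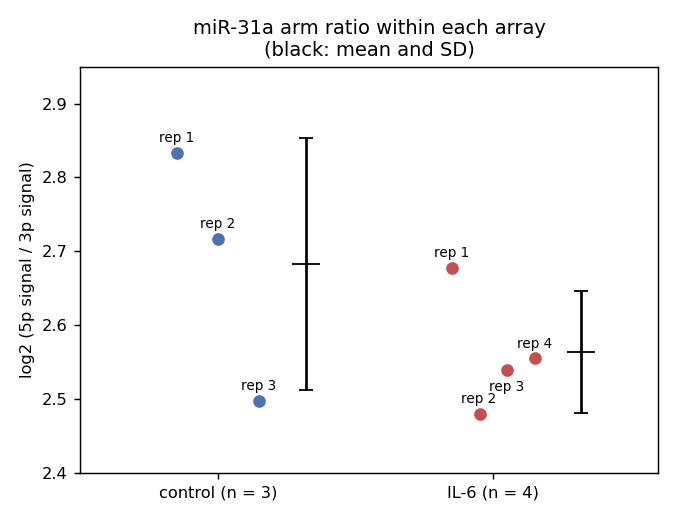
Log2 ratio of the miR-31a-5p to the miR-31a-3p signal within each array (y axis, which does not start at 0), for control (blue) and IL-6 (red), with the mean and SD of each group in black. Control arrays lie between 2.50 and 2.83 and IL-6 arrays between 2.48 and 2.68.

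Of 263 hairpins with both arms on the array, 17 had both arms tested and above the floor, the lowest level used for dim signals. Over these the median change in arm ratio was 0.028, and miR-31a ranked 10th by size. No hairpin passed (limma, Benjamini-Hochberg; 0% called, 4 with an unadjusted p under 0.05), and 17.6% had groups that did not overlap. For miR-31a the same fit gave a 95% interval of -0.32 to 0.08.

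The miRNAs whose level kept the most constant ratio to miR-31a-5p over the 7 arrays were miR-212-3p, miR-24-3p, miR-221-3p, miR-324-3p and miR-345-5p. The measure was the SD of the log2 ratio within an array, which no scaling factor changes. It was 0.033 for miR-212-3p, made from the locus of miR-132, a target of CREB. It was 0.038 for miR-24-3p, which rises in myoblast differentiation, and 0.046 for miR-221-3p, which represses the cell cycle inhibitor p27. It was 0.051 for miR-324-3p and 0.056 for miR-345-5p. The median over the 156 miRNAs compared was 0.15, and miR-31a-3p, at 0.13, came 62nd.

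miR-212-3p stood at 395, 416 and 367 scaled units on control replicates 1 to 3 and at 352, 329, 342 and 361 on IL-6 replicates 1 to 4. As with miR-31a-5p, control replicate 2 was highest and IL-6 replicate 2 lowest. All 5 had lower levels on each IL-6 array than on each control array, which their choice by likeness to miR-31a-5p over the same arrays favours, and none passed (limma log2 fold changes -0.18 to -0.088, adjusted p = 0.0839 or 0.200; 10.5% of the miRNAs tested were lower with no overlap and 22.1% had no overlap in either direction). These directions depended on the scaling as that of miR-31a-5p did: with spike-in scaling all 5 log2 fold changes were positive, and without scaling 4 were, the exception being miR-212-3p. The 5 share no seed with miR-31a-5p, as their sequences show, from RefSeq with the seed in capitals.
miR-212-3p: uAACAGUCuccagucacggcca
miR-24-3p: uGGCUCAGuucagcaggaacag
miR-221-3p: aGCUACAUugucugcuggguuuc
miR-324-3p: cCACUGCCccaggugcugcugg
miR-345-5p: uGCUGACCccuaguccagugc

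**Figure D5:**
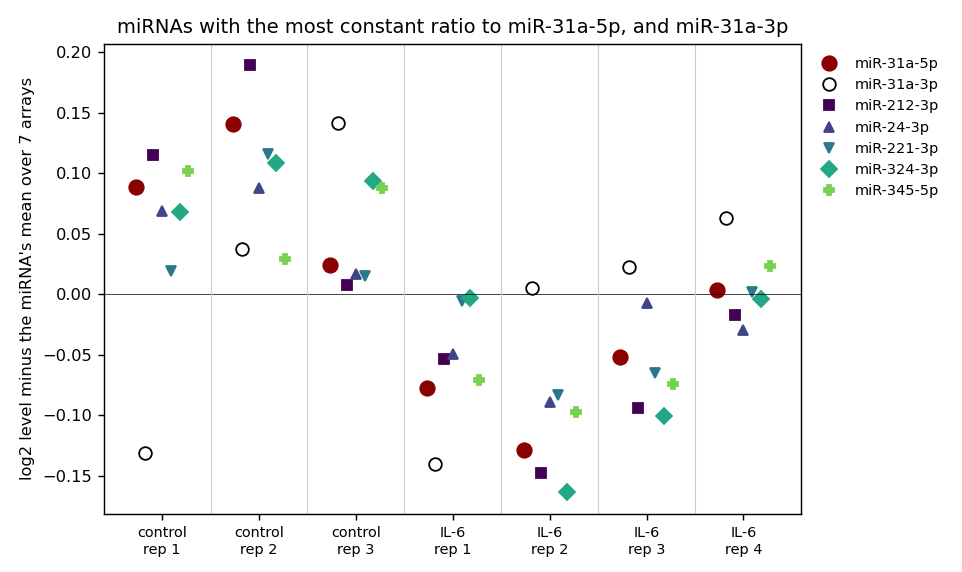
Log2 level minus the miRNA's own mean over the 7 arrays (y axis) on each array, for miR-31a-5p (dark red circles), miR-31a-3p (open circles) and the 5 miRNAs of most constant ratio to miR-31a-5p. miR-31a-3p is the lowest point on control replicate 1 and on IL-6 replicate 1, at -0.13 and -0.14. It is the highest on control replicate 3, at 0.14, and on IL-6 replicates 2, 3 and 4.

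A list of 16 other mature miRNAs was taken from hairpins with a known part in satellite cells. It counts both arms of miR-489 and of miR-708, whichever arm has that part. Of the 16, 11 were detected on no array, as were 510 of all 719 miRNAs. Among the 11 were both arms of miR-708 and of miR-489, which keeps satellite cells quiescent. So were miR-195-5p and miR-497-5p, which hold back the cell cycle, and miR-206-3p and miR-1-3p, which repress Pax7. The other 5 were detected on every array, and none passed in either direction (limma, Benjamini-Hochberg; 2 with an unadjusted p under 0.05), against 9.39% and 27.1% of all tested. miR-27b-3p, which targets Pax3, ranged from 1100 to 1170 scaled units in control and from 967 to 1100 with IL-6, a log2 fold change of -0.13 ± 0.051 SE (adjusted p = 0.154). miR-29a-3p, which rises as myoblasts differentiate, ranged from 1630 to 1830 and from 1830 to 2060, a log2 fold change of 0.15 ± 0.056 SE (adjusted p = 0.149). In each of these, the groups overlapped only at their edges. The log2 fold changes were 0.020 ± 0.098 SE for miR-27a-3p, 0.012 ± 0.062 SE for miR-106b-5p and -0.0035 ± 0.058 SE for miR-127-3p, of the imprinted Dlk1-Dio3 locus. The median of the 5 was 0.012, against 0.015 for all tested miRNAs.

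The defining miRNAs of muscle, from the families of miR-1 and miR-206, miR-133, miR-208 and miR-499, were detected on no array (7 of 7, where 510 of all 719 were on none). miR-1-3p, miR-206-3p and both miR-133 members are also among the 11 of the satellite cell list. Nor were the markers of endothelium (2 of 2), epithelium (6 of 6), nerve (2 of 2) or 4 of 5 of those of blood, while miR-223-3p, of myeloid cells, was detected on 1 array and not tested. All 5 markers of fibroblasts and smooth muscle were detected on every array, as were 168 of all 719 miRNAs. Their summed level was 23400 to 25100 scaled units in control and 20800 to 24100 with IL-6, ranges that overlap. The sum adds signals of different probes and leans on the brightest marker, miR-143-3p. Its log2 level was 13.59 to 13.66 in control and 13.29 to 13.61 with IL-6. Of the 5 markers, 4 had negative fold changes, as had 77 of the 181 tested miRNAs. None of the 5 passed (limma, 0 with an unadjusted p under 0.05), against 9.39% and 27.1% of all tested. The samples are described as skeletal muscle cells on day 11 of differentiation, yet none of the 7 muscle miRNAs was detected. The 5 fibroblast and smooth muscle markers were, and muscle cells also express some of them. The make-up of the cultures was not tested. Nor was its part in the level of miR-31a-5p. In such bulk RNA, fewer cells that make a miRNA and less of it per cell cannot be told apart.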

How the data were processed

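Spot intensities are the authors' scanner output, read with Agilent Feature Extraction 10.10.1.1 (protocol for 1-colour miRNA arrays, probe positions on rn4), per the file headers. The deposited processed signal, an intensity, is background-subtracted and not scaled between arrays. The flags for outlier spots, spots well above background and detected miRNAs are also the authors', per the file headers. In the deposited value table, intensities were the same as the total probe signals on all 15095 spots (tolerance 0.001).

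Outlier spots were left out (7 and 8 of the 140 spots of each arm) and spots of a probe averaged. Each array was divided by its 75th percentile taken over 268 probes with at least a share of 0.5 of their spots above background on each array. Values below 15.7 units were set to that floor and log2 was taken. The brightest probe stood for a miRNA. The 181 miRNAs that had a detection call on all arrays of a group (or of both) were fitted with limma 3.58.1 under R 4.3.3 and Benjamini-Hochberg adjustment. The median SE was 0.0665, and the number of arrays limits the precision. Arm ratios and single levels had exact permutation tests. The hairpin was folded with RNAfold 2.7.2. The fit was tested on simulated data.

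The members, the lists and the tests were chosen with earlier results of these data known. Named miRNAs were both arms, those that share the seed of miR-31a-5p (none), tested members of the satellite cell list, the 5 of most constant ratio to miR-31a-5p and the neighbours in order of p; miR-31b was named after its values were seen. The alternatives were other scalings, normexp background, total gene signal, the value table, other probe and spot rules, floors, filters and models, blocks for replicate number and slide column, and leaving out or averaging arrays.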

Additional observations from a re-analysis of the deposited data

Results flagged for a closer look

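For 16 quantities the 4 IL-6 arrays were searched for an array that stood far from the rest. By Dixon's criterion 1 quantity had such an array, where chance gives about 1 in 20. miR-106b-5p, a member of the satellite cell list, stood at 6.61 on IL-6 replicate 4 and at 6.46 to 6.49 on the other IL-6 arrays (log2 level, ratio of gap to range 0.855). Neither arm of miR-31a nor their ratio passed.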

How the results depend on the processing

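For miR-31a-5p the log2 fold change of -0.15 kept its direction in 27 of 30 alternatives. Those that change the floor or filter, the trend and robust model and the exact permutation test cannot move this estimate, so their agreement carries no weight. miR-31a-5p passed with quantile normalization (-0.24), the median of probe ratios (-0.18), outlier spots kept (-0.18) and array weights (-0.17). Its direction turned with no scaling (0.0296), spike-in scaling (0.0382) and the deposited value table (0.0368). Leaving out 1 array gave -0.18 to -0.12 (limma, adjusted p from 0.0647 to 0.258). With a replicate block it was -0.17 (limma, adjusted p = 0.176) and with a slide column block -0.13 (adjusted p = 0.213). Each block leaves 1 IL-6 array without a control, so the comparison rests on the other arrays: replicate 4 for the number and replicate 2 for the column. The numbers are not shown to pair the samples: deviations of same-numbered arrays correlated at 0.52, -0.18 and 0.26, and those of the same slide column at 0.52, 0.19 and 0.13. The counts of higher and lower miRNAs, 9 and 8 as reported, were 0 and 3 with the replicate block, against 1 and 5 without IL-6 replicate 4 and with no block, and 0 and 0 with the slide column block, against 9 and 6 without IL-6 replicate 2 and with no block. Over all alternatives they ran from 0 to 29 and 0 to 18 (1 to 75 with an unadjusted p under 0.05, limma). miR-31a-3p (-0.028 as reported) ran from -0.17 with the percentile taken over all probes to 0.16, passed nowhere, and turned with no scaling (0.15), spike-in scaling (0.16), the value table (0.16), normexp background (0.0118), array weights (0.0131) and when control replicate 3 was left out together with IL-6 replicate 1 (0.0769), and ran from -0.10 to 0.0343 with 1 array left out. The arm ratio kept its sign in 23 alternatives (-0.25 to -0.044). Changes of the scaling factor or the floor cannot move this ratio, and the value table left it at -0.12, so their agreement carries no weight. The exact permutation p of the arm ratio ran from 0.0857 to 0.400 where all 7 arrays entered singly. With arrays left out or averaged, too few splits are left for a p under 0.05, so those values say nothing about the threshold. miR-31a-3p was above background on all 7 arrays under the other detection rules tried (any spot, the call for the miRNA, outlier spots kept). With the mean of probes, 3 of the 5 miRNAs of most constant ratio were the same.

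None of the other named miRNAs passed as reported. Some did in alternatives (limma, adjusted p), all lower with IL-6: miR-212-3p with quantile normalization (0.0153) and array weights (0.0223), miR-27b-3p with the median of probe ratios (0.0410), miR-345-5p with that (0.0201) and with outlier spots kept (0.0309), and miR-324-3p with both (0.0413 and 0.0468) and with array weights (0.0241). So did miR-24-3p with outlier spots kept (0.0233) and array weights (0.0348), miR-221-3p with array weights (0.0483), and miR-664-3p with array weights (0.0159) and without IL-6 replicate 1 (0.0397). Directions turned as follows (log2 fold changes). With no scaling, miR-27b-3p was at 0.0444, miR-127-3p at 0.17, miR-24-3p at 0.0756, miR-221-3p at 0.0895, miR-324-3p at 0.0199 and miR-345-5p at 0.0501. With spike-in scaling these 6 were at 0.053, 0.18, 0.0842, 0.0981, 0.0285 and 0.0587, and miR-212-3p at 0.0039. In the value table they were at 0.0516, 0.18, 0.0828, 0.0967, 0.0272 and 0.0573, and miR-212-3p at 0.0026. miR-27a-3p turned with the percentile taken over all probes (-0.12), the median of probe ratios (-0.0073), outlier spots kept (-0.0083), the replicate block (-0.0015) and IL-6 replicates 3 and 4 averaged (-0.0081). miR-106b-5p turned with the percentile taken over all probes (-0.13), quantile normalization (-0.0343), the median of probe ratios (-0.0154), outlier spots kept (-0.0016) and the replicate block (-0.0212). miR-127-3p turned with normexp background (0.0024), total gene signal (0.0011), the mean of probes (0.0088), the median of spots (0.0117) and the slide column block (0.0387). With 1 array left out miR-27a-3p ran from -0.0476 to 0.10, miR-106b-5p from -0.0448 to 0.0622 and miR-127-3p from -0.0418 to 0.0387. The cause was not tested.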
